A study of Arabidopsis thaliana with 13 samples.

Results

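ath-MIR173, ath-MIR390a and ath-MIR390b, here MIR173, MIR390a and MIR390b, are Arabidopsis loci whose miRNAs start the production of trans-acting siRNAs (tasiRNAs). Their levels were followed in seedlings and through flower development. The loci were taken by name, although earlier results of these data were known when they were chosen. All 3 were present among the 325 miRNA loci of the table of normalized levels. Small RNA was sequenced from plants of the Landsberg ecotype with the genotype pAP1:AP1:GR ap1 cal, grown in long days, and this genotype was shared by all 13 libraries. In these plants the floral meristem regulators AP1 and CAL are mutated and the AP1 promoter drives a fusion of AP1 with the glucocorticoid receptor, so that dexamethasone (DEX) switches AP1 on and many meristems begin to form flowers together. The inflorescences came from 2 untreated samples (day 0) and from plants given DEX daily for 2 days (n = 3), 4 days (n = 2) or 8 days (n = 3), and untreated seedlings at the vegetative stage (n = 3) were the other tissue. No induced plants of the seedling stage and no mock-treated inflorescences were among the samples, so DEX, time and development cannot be told apart.

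A tasiRNA arises when a miRNA directs the cutting of a noncoding TAS transcript, which is then copied into double-stranded RNA and diced in a regular phase into siRNAs that act on other genes. miR173 acts on the TAS1 and TAS2 transcripts, whose siRNAs target, among others, genes of pentatricopeptide repeat proteins. miR390 acts with the Argonaute protein AGO7 on TAS3 transcripts, whose siRNAs restrain the auxin response factors ETTIN (ARF3) and ARF4 and so take part in leaf polarity, the timing of juvenile growth and the patterning of floral organs. The TAS transcripts and the tasiRNAs themselves were not analysed here.

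The mature sequences are shown because they decide what a read count of these loci can hold. They were read from the reference genome (RefSeq, assembly TAIR10.1) at the annotated positions, and the capitals mark the seed, bases 2 to 8 from the 5′ end.
MIR173-5p: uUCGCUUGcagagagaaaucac
MIR173-3p: uGAUUCUCuguguaagcgaaa
MIR390a-5p: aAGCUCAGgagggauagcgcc
MIR390a-3p: cGCUAUCCauccugaguuuca
MIR390b-5p: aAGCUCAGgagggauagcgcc
MIR390b-3p: cGCUAUCCauccugaguucc
The 5p strands are the ones known to guide the cutting of TAS transcripts. MIR173-5p has 22 bases and begins with U, whereas both miR390 5p strands have 21 bases and begin with A. The 5p strands of MIR390a and MIR390b were identical at 21 of 21 positions, so they share 1 seed, and MIR173 has a seed of its own. The 3p strands of the MIR390 pair were identical at 19 of the 20 positions compared. They differed by U19C, in which the base of MIR390a is written first and positions count from the 5′ end, and MIR390a-3p is 1 base longer.

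The hairpins from which these strands are cut are given below their names with both strands in capitals.
MIR173 hairpin: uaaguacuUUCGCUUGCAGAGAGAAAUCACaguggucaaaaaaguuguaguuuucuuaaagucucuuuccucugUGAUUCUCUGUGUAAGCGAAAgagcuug
MIR390a hairpin: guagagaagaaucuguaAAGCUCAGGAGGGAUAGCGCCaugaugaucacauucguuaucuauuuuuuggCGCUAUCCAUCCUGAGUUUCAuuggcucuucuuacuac
MIR390b hairpin: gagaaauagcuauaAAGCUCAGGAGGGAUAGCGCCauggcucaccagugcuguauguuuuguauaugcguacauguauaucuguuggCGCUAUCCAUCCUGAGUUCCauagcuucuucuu
MIR173 (AT3G23125) lies at chr3:8236153-8236254, MIR390a (AT2G38325) at chr2:16061954-16062060 and MIR390b (AT5G58465) at chr5:23636947-23637066, all on the plus strand in TAIR10.1. Each is annotated as a miRNA gene and overlaps 0 protein-coding genes, and the nearest protein-coding gene was 1565, 2443 and 349 bases away, respectively. The authors counted reads that mapped to a single place. MIR173-5p occurred at 1 place in the genome, and so did its forms 1 base longer or shorter at either end. The 21-base sequence of miR390 occurred at 2 places, 1 in each MIR390 hairpin, and the forms 1 base longer or shorter did as well. The hairpins share a stretch of 26 bases around it and another of 22 bases that covers most of the 3p strand, and together these hold the 8 of 87 windows of 21 bases in MIR390a, and 8 of 100 in MIR390b, that occur at several places. A full-length miR390 read therefore has 2 equal places, and a count of uniquely mapped reads leaves it out. The values of MIR390a and MIR390b given here are those of the remaining reads of each hairpin, for example the 3p strands, each found at 1 place. They do not measure the abundance of mature miR390, and a ratio of MIR173 to a MIR390 locus does not rank the triggers. The other loci named below were also counted by uniquely mapped reads, and the places of their mature strands were not searched. Where such a strand is shared between loci, the value of a locus leaves it out as well.

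The known targets show how the guides differ. In each TAS1 and TAS2 gene the window closest to the complement of MIR173-5p had 2 or 3 mismatches, G:U pairs included, and none of these fell in the seed. The best window for miR390 in the same genes had 8 to 10 mismatches. The miR173 windows of TAS1A, TAS2 and TAS1B are shown 5′ to 3′ as RNA with the mismatched bases in capitals.
TAS1A site: gugauuuUucucuAcaagcgaa
TAS2 site: gugauuuUucucuCcaagcgaa
TAS1B site: gugauuuUucucAAcaagcgaa
TAS1A (AT2G27400) has it at chr2:11722081-11722102, TAS2 (AT2G39681) at chr2:16539991-16540012 and TAS1B (AT1G50055) at chr1:18549660-18549681, all on the minus strand. The TAS1C window (chr2:16537890-16537911, minus strand) was identical to that of TAS1A. Counted along the miRNA from its 5′ end, positions 9 and 15 were mismatched in all of these, and TAS1B was also mismatched at position 10.
TAS3 upstream site: ggUgUuauccUAUcugagcuu
TAS3 downstream site: UUGUcuaucccuccugagcuA
In TAS3 (AT3G17185) the 2 best miR390 windows lie at chr3:5862099-5862119 and chr3:5862343-5862363 on the plus strand, and each had 5 mismatches. Of these, 4 were G:U pairs in the upstream window and 0 in the downstream one. The upstream window was mismatched at positions 9, 10 and 11 of miR390, around the bond that Argonaute proteins cut, with G:U pairs at 9 and 11. The downstream window was fully paired there and mismatched at its ends, at positions 1, 18, 19, 20 and 21. TAS3 is known as a target bound at both sites and cut at the downstream one. These matches are descriptions of letters in the reference genome, which is of another ecotype than the plants.

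Levels are given in RPM, mapped reads of a locus scaled by all mapped reads of its library. The inflorescence libraries held an estimated 926300 to 2142752 mapped reads and the seedling libraries 148673 to 366691, so that 3 reads correspond to 1.4 to 3.24 RPM in inflorescences and to 8.18 to 20.2 RPM in seedlings. A value below the level of 3 reads is taken as not distinguishable from 0. Exact Poisson intervals (95%) are given where they matter and cover only the error of counting, as no molecular identifiers were read. The tissue labels were checked with the summed level of MIR156a to MIR156h and MIR157a to MIR157d, loci known to be high in the vegetative phase, which was 254 to 362 RPM in seedlings and 14.1 to 51.7 RPM in inflorescences. The deposited run list puts the seedlings in run 1. Days 0 and 2 share run 2, and days 4 and 8 share run 3. A comparison of seedlings with inflorescences, or of day 0 or 2 with day 4 or 8, is therefore also one between runs, and the run and the group cannot be told apart.

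ath-MIR173 was the well-measured locus. It ranked 9th to 11th of all loci in the inflorescence libraries and 15th to 19th in seedlings, and took 0.517 to 1.32% of all miRNA RPM in inflorescences. In seedlings it had 62.7, 67.3 and 85.1 RPM, from 23, 10 and 24 reads. On day 0 it had 224 and 234 RPM, and on day 2 it had 255.7, 375 and 231 RPM. The seedling libraries lay below every inflorescence library, and day 2 contained 1 library that stood above its replicates. On day 4 MIR173 had 153 and 179 RPM, and on day 8 it had 316, 188 and 198 RPM. Day 4 held the lowest inflorescence values, and replicate 1 of day 8 stood above its replicates in turn. The Poisson interval of the high day 2 library, replicate 2 (343 to 409 RPM), did not reach those of its replicates, and that of the high day 8 library (284 to 350 RPM) did not either. Spread between replicates on these days was therefore larger than counting error.

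**Figure D1:**
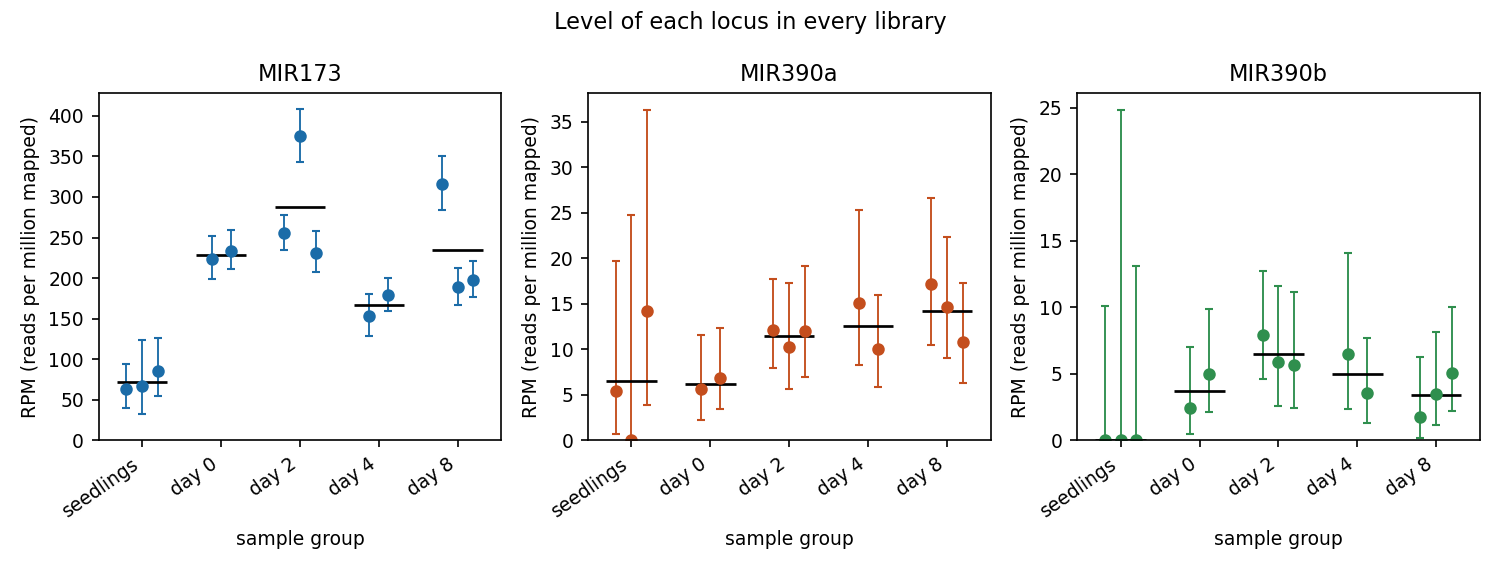
Level of MIR173, MIR390a and MIR390b (RPM, linear axes from 0 with a scale of their own) in each library, by sample group. Points are libraries with exact 95% Poisson intervals and horizontal lines are group means. MIR173 lies at 62.7 to 85.1 RPM in seedlings and at 153 to 375 RPM in inflorescences, whereas the intervals of the MIR390 loci in seedlings span the inflorescence values.

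ath-MIR390a was a low-level locus. In seedlings it had 5.45, 0 and 14.2 RPM, from 2, 0 and 4 reads. In inflorescences it had 5.60 and 6.88 RPM on day 0 and 12.1, 10.3 and 12 RPM on day 2. Both day 0 libraries lay below the day 2 libraries, and the seedling libraries spanned all of these values. On day 4 MIR390a had 15.1 and 9.98 RPM, and on day 8 it had 17.2, 14.7 and 10.8 RPM. The day 4 and day 8 values overlapped each other and those of day 2, and all of them lay above day 0. An inflorescence library held 7 to 26 reads of MIR390a, and its replicates varied no more than counting error allows, with a chi-square of 0.182 to 2.08 per day at 1 or 2 degrees of freedom.

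ath-MIR390b was the lowest of the 3. It was at 0 reads in all 3 seedling libraries, where 3 reads are 8.18 to 20.2 RPM and the exact intervals reach 10.1, 24.8 and 13.1 RPM. On day 0 it had 2.40 and 5.003 RPM, on day 2 it had 7.93, 5.88 and 5.64 RPM, on day 4 it had 6.48 and 3.52 RPM, and on day 8 it had 1.72, 3.49 and 5.08 RPM. The day 2 libraries lay above those of day 0 and day 8, and the day 4 libraries overlapped every other day. These values rest on 2 to 17 reads a library, and replicate 1 of day 8 was below the level of 3 reads.

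By mean level the order was the same on every day of induction, MIR173 above MIR390a above MIR390b. Within MIR173, the order of the group means was day 2 (287 ± 76.7 RPM, SD, n = 3), day 8 (234 ± 71.1, n = 3), day 0 (229 ± 7.03, n = 2), day 4 (166 ± 18.3, n = 2) and seedlings (71.7 ± 11.8, n = 3). The neighbours day 2, day 8 and day 0 overlapped in their libraries, and day 4 was separate from all 3. MIR390a means were 14.2 ± 3.24 RPM on day 8, 12.5 ± 3.63 on day 4, 11.5 ± 1.03 on day 2, 6.55 ± 7.15 in seedlings and 6.24 ± 0.905 on day 0. Only day 0 was separate from days 2, 4 and 8 there, and the seedlings overlapped every day. MIR390b means were 6.49 ± 1.26 RPM on day 2, 5.001 ± 2.09 on day 4, 3.70 ± 1.84 on day 0 and 3.43 ± 1.68 on day 8, and neighbours in this order overlapped while day 2 was separate from day 0 and day 8.

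The first question was which locus changed in the first days of induction. From day 0 to day 2, which shared a run, none of the 3 loci passed the test, and 0 of all 137 loci did (0%). At an unadjusted p under 0.05, 11 loci did, MIR390a among them. MIR390a had a fold change of 0.79 on the log2 scale of RPM + 1 (SE 0.34, 95% interval 0.09 to 1.48, limma adjusted p = 0.508). MIR390b had 0.72 (SE 0.46, adjusted p = 0.608). Both were higher in 3 of 3 day 2 libraries than in both day 0 libraries. The share of all loci whose libraries separate in this way was not counted. Such a separation, here and on the later steps, is therefore a description and no support for a change. MIR173 had 0.29 (SE 0.23, adjusted p = 0.704) with overlapping libraries. On this step the intervals of MIR173 and MIR390b included 0.

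From day 2 to day 4, MIR173 fell by 0.76 on the log2 scale (SE 0.23, 95% interval -1.23 to -0.28, limma adjusted p = 0.0270), from 287 to 166 RPM, with 2 of 2 day 4 libraries below 3 of 3 day 2 libraries. It was 1 of the 17 loci that passed here (12.4%). MIR390a (0.10, SE 0.34, adjusted p = 0.892) and MIR390b (-0.35, SE 0.46, adjusted p = 0.709) did not pass, and their libraries overlapped. The call for MIR173 is a weak one. Without day 2 replicate 2, the high library, the change was -0.55 (adjusted p = 0.178), and without day 4 replicate 1 it was -0.65 (adjusted p = 0.186). It also missed the threshold with the fold change as it was when day 0 replicate 2 (adjusted p = 0.0561) or day 8 replicate 2 (adjusted p = 0.0509) was left out of the shared estimate of spread. Without day 2 replicate 1, which is titled day 2 and labelled as treated with DEX but carries a time label of 0 days, the change was -0.83 (adjusted p = 0.0437).

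From day 4 to day 8, which shared a run, 20 loci passed (14.6%) and none of the 3 did. MIR173 had 0.46 (SE 0.23, adjusted p = 0.215), and its 3 day 8 libraries all lay above both day 4 libraries. MIR390a had 0.17 (SE 0.34, adjusted p = 0.871) and MIR390b had -0.47 (SE 0.46, adjusted p = 0.619). Between days 2 and 8, where 50 loci passed (36.5%), the values were -0.30 for MIR173 (SE 0.21, adjusted p = 0.281), 0.27 for MIR390a (SE 0.30, adjusted p = 0.547) and -0.82 for MIR390b (SE 0.41, adjusted p = 0.131), and none passed. MIR390b was lower in 3 of 3 day 8 libraries than in every day 2 library.

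Across the whole course, MIR390a rose from day 0 to day 8 by 1.05 on the log2 scale (SE 0.34, 95% interval 0.36 to 1.75, limma adjusted p = 0.0186), which is 2.28 times in mean RPM, and 3 of 3 day 8 libraries lay above both day 0 libraries. It was 1 of 39 loci that passed (28.5%). MIR173 had -0.01 (SE 0.23, 95% interval -0.48 to 0.47, adjusted p = 1) and MIR390b had -0.10 (SE 0.46, 95% interval -1.05 to 0.84, adjusted p = 0.931). The call for MIR390a also depended on single libraries. It was lost without day 0 replicate 1 (0.93, adjusted p = 0.147), day 0 replicate 2 (1.18, adjusted p = 0.0518), day 8 replicate 1 (0.91, adjusted p = 0.0668) or day 8 replicate 2 (1.02, adjusted p = 0.0654), while the direction stayed in each. The 2 libraries of day 0 rest on 7 and 11 reads.

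A single test of any difference between the 4 days, which 45 loci passed (32.8%), gave adjusted p = 0.0754 for MIR173, 0.0823 for MIR390a and 0.340 for MIR390b. None of the 3 passed. The changes are relative to the scale of mapped reads, on which the median of all tested loci stood at 0.17 from day 0 to day 8 and at 0.20 from day 2 to day 8. Scaling by median ratios moved these medians to -0.02 and -0.03. On that scale the rise of MIR390a from day 0 to day 8 was 0.77 (adjusted p = 0.0865) and MIR173 was lower on day 8 than on day 2 by -0.62 (adjusted p = 0.0119).

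**Figure D2:**
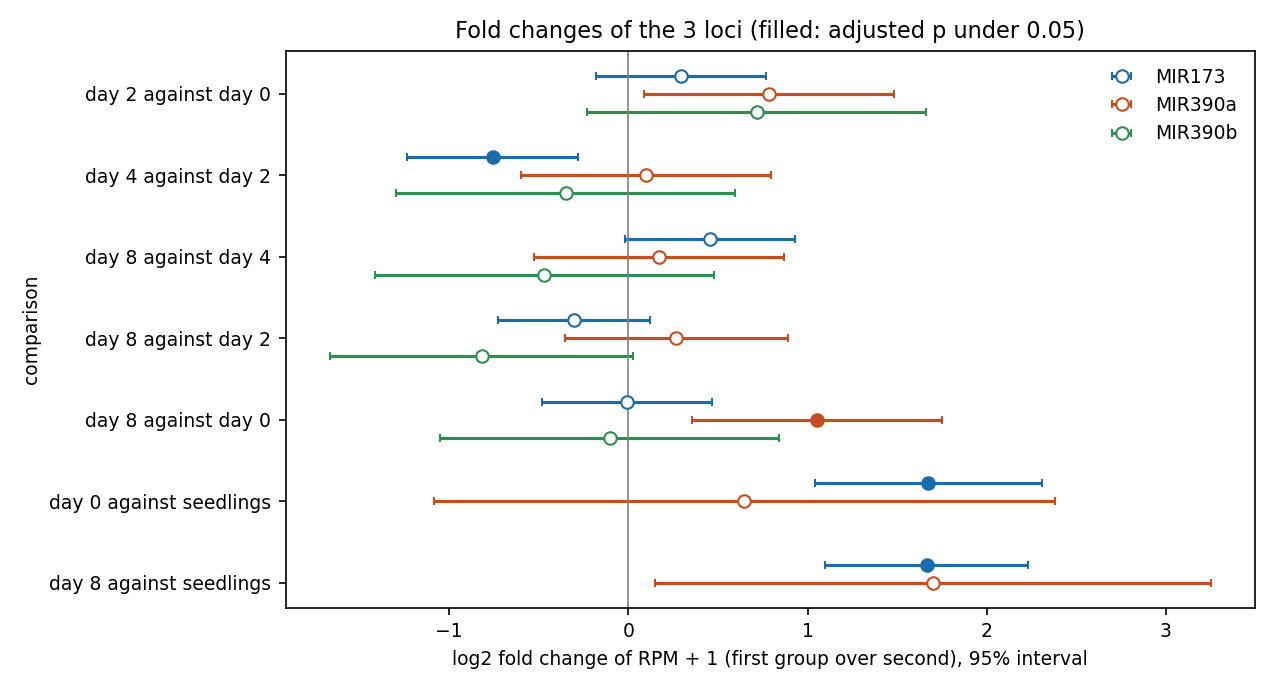
Log2 fold change of RPM + 1 (horizontal axis) of MIR173, MIR390a and MIR390b in each comparison (vertical axis), with 95% intervals and filled points where the adjusted p was under 0.05. MIR173 lies at -0.76 from day 2 to day 4 and near 1.67 against seedlings, and MIR390a lies at 1.05 from day 0 to day 8. MIR390b against seedlings is not drawn because all of its values are below the level of 3 seedling reads.

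**Figure D3:**
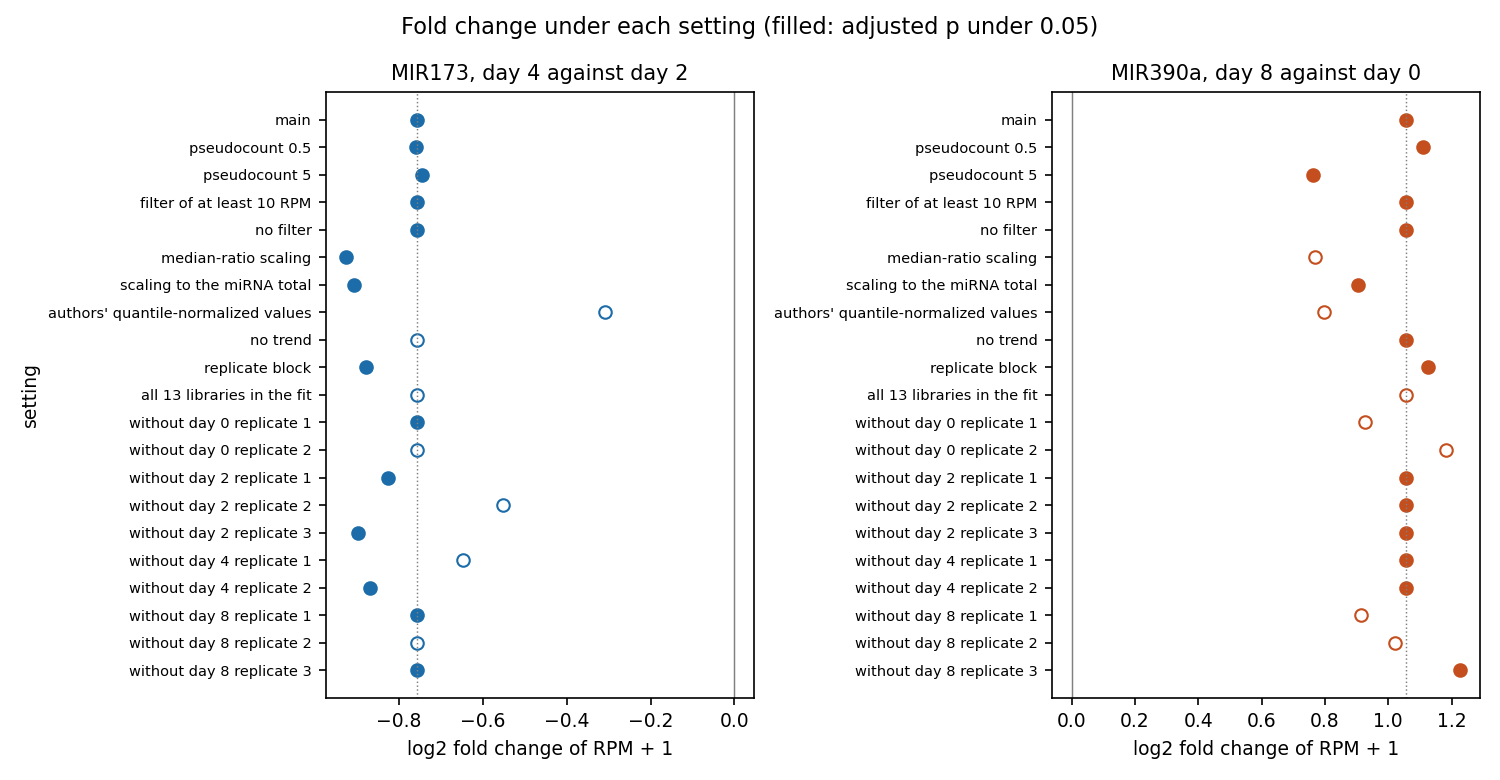
Log2 fold change of RPM + 1 (horizontal axis) for MIR173 from day 2 to day 4 and MIR390a from day 0 to day 8 under each setting (vertical axis), filled where the adjusted p was under 0.05. The dotted line is the value as reported and the solid line is 0. Every value keeps its side of 0, and 7 of the 20 alternatives miss the threshold in each plot.

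Against seedlings, MIR173 was higher in inflorescences in every library. The difference was 1.67 on the log2 scale on day 0 (SE 0.29, 95% interval 1.04 to 2.31, limma adjusted p = 0.000428) and 1.67 on day 8 (SE 0.26, 95% interval 1.10 to 2.23, adjusted p = 0.000146). In mean RPM these are 3.19 and 3.27 times. Of the 153 loci tested, 70 passed on day 0 (45.8%) and 76 on day 8 (49.7%), so nearly every second locus was called. The median locus stood 0.59 and 0.55 above seedlings on the log2 scale. These calls include loci below the level of 3 seedling reads, such as MIR390b, and how many was not counted. With a minimum of 10 RPM, where fewer loci were tested, 43 and 41 were called. The same limit holds for these shares wherever they are given below. Over the 10 inflorescence libraries the mean was 235 ± 66.7 RPM. At that level the seedling libraries would have held 188 reads of MIR173 in all, and they held 57. The call was kept under all 22 alternatives for each day, with a difference of 0.95 to 2.01 over both days.

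MIR390a was not called against seedlings on day 0 (0.65, SE 0.80, adjusted p = 0.537) or on day 8 (1.70, SE 0.72, 95% interval 0.15 to 3.25, adjusted p = 0.0642). The seedling libraries held 6 reads of it in all where the inflorescence mean of 11.5 RPM would give 9.14. Only seedling replicate 3, with 4 reads, reached the level of 3 reads, so these fitted values depend on the pseudocount and are no bounds. They also turned on single seedling libraries. Without replicate 3 the day 8 difference was 2.56 (adjusted p = 0.00273) and the day 0 difference 1.51 (adjusted p = 0.0791). Without replicate 2, the library at 0, they were 0.60 (adjusted p = 0.229) and -0.46 (adjusted p = 0.382). For MIR390b the fit gave adjusted p = 0.00241 on day 0 and 0.00101 on day 8, but every inflorescence value (1.72 to 7.93 RPM) was below the level of 3 reads in every seedling library. The inflorescence mean of 4.71 RPM would give 3.76 reads in the seedling libraries together, and 0 were found. No fold is given, and so few reads do not decide whether MIR390b differed between the tissues.

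Ratios within a library were used to ask whether the loci followed different courses, since, apart from the pseudocount, they do not change with the scaling of a library. MIR173 had 10.1 to 40.0 times the RPM of MIR390a in the inflorescence libraries, with a median of 18.8. The log2 ratio of RPM + 1 was 5.09 and 4.90 on day 0 and 4.29, 5.06 and 4.16 on day 2. It was 3.26 and 4.04 on day 4 and 4.12, 3.60 and 4.08 on day 8. The libraries of days 4 and 8 all lay below those of days 0 and 2. An exact permutation test over the 25200 assignments of the 10 libraries gave p = 0.0454 for any difference between the days, and 0.136 after adjustment over the 3 pairs of loci. The split coincides with the sequencing runs, and the part of the run in it was not tested.

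MIR390a had 1.38 to 10 times the RPM of MIR390b in inflorescences, with a median of 2.23. The mean log2 ratio was 0.67 ± 0.40 on day 0, 0.75 ± 0.21 on day 2, 1.19 ± 0.12 on day 4 and 1.83 ± 0.89 on day 8. The day 8 libraries spanned 0.96 to 2.74 and overlapped the other days, and the exact permutation test gave p = 0.107 (adjusted p = 0.161). For MIR173 over MIR390b the exact permutation p was 0.560 (adjusted p = 0.560). MIR390a was above MIR390b in 10 of 10 inflorescence libraries. Against seedlings, no ratio passed in the exact two-sided permutation test of 10 libraries against 3. The adjusted p was 0.699 for MIR173 over MIR390a and 0.231 for each of the other 2 pairs. MIR390b was at 0 in all 3 seedling libraries and MIR390a in seedling replicate 2, so the seedling ratios depend on the pseudocount. The test therefore cannot decide whether the ratios differ between the tissues.

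**Figure D4:**
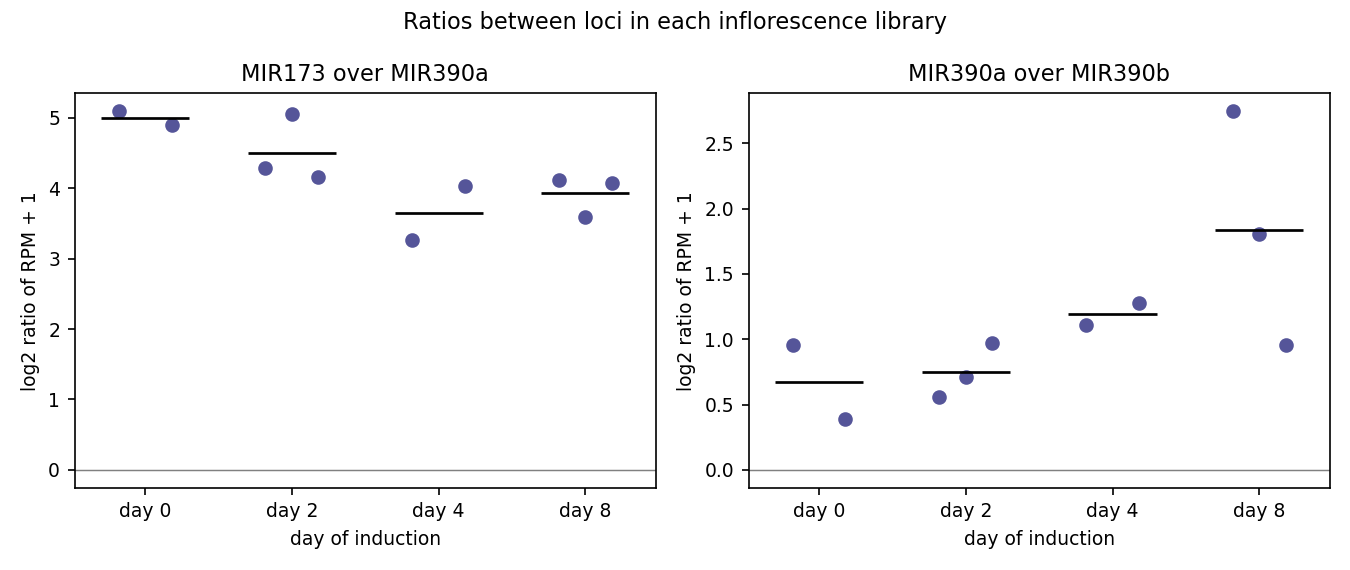
Log2 ratio of RPM + 1 within each inflorescence library (vertical axis) by day of induction (horizontal axis), for MIR173 over MIR390a and MIR390a over MIR390b. Points are libraries and lines are means of a day. MIR173 over MIR390a lies at 4.16 to 5.09 on days 0 and 2 and at 3.26 to 4.12 on days 4 and 8, and the spread of MIR390a over MIR390b is widest on day 8.

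The loci whose course over the 10 inflorescence libraries was most like that of MIR173 were MIR8165 (Pearson r = 0.83, Spearman rho = 0.70), MIR167a (r = 0.77, rho = 0.79) and MIR5014a (r = 0.69, rho = 0.64), out of 134 loci compared. MIR167a, whose miRNA targets the auxin response factors ARF6 and ARF8, had 102 ± 16.2 RPM on day 0, 95.5 ± 17.3 on day 2, 20.4 ± 5.99 on day 4 and 64.0 ± 11.2 on day 8. Its lowest level was on day 4, as for MIR173, but MIR167a was picked here for its likeness to MIR173. The shared course is therefore a description and not a separate result. MIR8165 ranged over 4.19 to 19.8 RPM and MIR5014a over 1.27 to 11.02 RPM. For MIR390a the most similar were MIR840 (r = 0.85, rho = 0.76), MIR861 (r = 0.80, rho = 0.73) and MIR3440b (r = 0.77, rho = 0.45). MIR840 had 8.80 to 17.3 RPM, while MIR861 reached 5.58 RPM and MIR3440b 1.41 RPM, a level of a few reads. Between the members, r was -0.03 for MIR173 with MIR390a, 0.05 for MIR390a with MIR390b and -0.11 for MIR173 with MIR390b. The points of each correlation share library, depth and run, and MIR390b lay below the mean of 10 RPM asked of a locus to be matched in this way.

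Among the other loci whose miRNAs are known to trigger secondary siRNAs in Arabidopsis, 3 of 7 were tested over the inflorescence days. Between days 2 and 4, 1 rose, 0 fell and the median was 0.67, against 12.4% called and a median of 0.05 over all loci. MIR161, whose miRNAs target pentatricopeptide repeat genes as the TAS1 and TAS2 siRNAs do, rose from 2536 ± 522 RPM on day 2 (n = 3) to 4052 ± 75.4 on day 4 (n = 2), by 0.70 on the log2 scale (SE 0.16, limma adjusted p = 0.00330). MIR161 thus rose over the step on which MIR173 fell, and kept this direction under both other scalings (0.53 and 0.55). From day 0 to day 8, 2 of the 3 rose and the median was 0.66, against 28.5% called and a median of 0.17 over all loci. They were MIR161 (0.64, adjusted p = 0.00456) and MIR825 (adjusted p = 0.0342), which went from 1.83 ± 0.81 RPM, a level of 2 or 3 reads for which no fold is given, to 5.49 ± 0.28 RPM. With median-ratio scaling both missed the threshold (each adjusted p = 0.0865). From day 4 to day 8 and from day 0 to day 2, 0 of 3 rose or fell. Against seedlings 4 were tested on day 0, of which 1 was higher and 2 lower, where 45.8% of all loci were called. MIR161 was lower by -0.75 (SE 0.18, adjusted p = 0.00428), where MIR173 was higher. The other calls were for MIR472 and MIR393b, which reached 3 reads in 0 of the 3 seedling libraries, and no fold is given for them. On day 8, 1 of the 4 was higher than in seedlings and 1 lower, the same pair, where 49.7% of all loci were called. MIR161 was not called there (-0.11, adjusted p = 0.616), but it was called lower under both other scalings. It had -0.64 (adjusted p = 0.0146) with median ratios and -0.84 (adjusted p = 0.000232) with the miRNA total.

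Among the loci whose miRNAs target other auxin response factors, 6 of 7 were tested over the days. Here too the values are uniquely mapped reads of a locus, and whether they follow the mature miRNA was not tested. Between days 2 and 4, 0 rose, 2 fell and the median was -0.41, against 12.4% called and a median of 0.05 over all loci. MIR167a fell by 2.19 (SE 0.25, adjusted p = 2.46e-07), and MIR167d, at 3.15 ± 0.83 RPM on day 2 and at 0 in both day 4 libraries, was the other. From day 4 to day 8, 1 of 6 rose, MIR167a by 1.62 (SE 0.25, adjusted p = 4.45e-05), where 14.6% of all loci were called. MIR173 had the same signs on both steps, -0.76 and 0.46, of which the second did not pass. MIR167a was also among the loci picked above for their likeness to MIR173, so the shared signs are a description. From day 0 to day 8 the 2 that passed were again MIR167a (-0.67, adjusted p = 0.0451) and MIR167d, both lower, whereas MIR390a rose. The median of the 6 was 0.06 there, against 28.5% called and a median of 0.17 over all loci. Under both other scalings MIR167a kept these 3 directions. The 3 MIR160 loci, whose miRNAs target ARF10, ARF16 and ARF17, passed on 0 of the steps between days. MIR160c did pass from day 2 to day 8 under both other scalings, at -1.10 (adjusted p = 0.00857) with median ratios and -1.04 (adjusted p = 0.0150) with the miRNA total. Against seedlings, MIR167c was 23.8 ± 8.90 RPM in seedlings and 0 in both day 0 libraries, the 1 of 7 that was lower there, and 0 were higher, where 45.8% of all loci were called. On day 8, with 49.7% of all loci called, it was again lower, and the 1 that was called higher, MIR160a, had every value below the level of 3 seedling reads.

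Among the loci whose miRNAs target the small RNA machinery itself, 4 of 5 were tested. From day 0 to day 8, 2 rose, 1 fell and the median was 0.60, against 28.5% called and a median of 0.17 over all loci. Those that rose were MIR162b (1.68, SE 0.39, adjusted p = 0.00230), whose miRNA targets DICER-LIKE 1, and MIR168a (1.00, SE 0.33, adjusted p = 0.0209), whose miRNA targets ARGONAUTE 1, the partner of miR173. MIR403, whose miRNA targets ARGONAUTE 2, fell by 0.85 (SE 0.25, adjusted p = 0.0124), from 67.8 ± 8.25 RPM on day 0 to 37.7 ± 9.99 on day 8. All 3 kept their direction under both other scalings, and median-ratio scaling put MIR168a at adjusted p = 0.0899. The rise of MIR390a by 1.05 over the same days was of the size of that of MIR168a. All values of this list are uniquely mapped reads of a locus, and whether they follow the mature miRNAs was not tested. On the step to day 4, 1 of the 4 rose, MIR162b (1.24, adjusted p = 0.0357), where 12.4% of all loci were called. With median-ratio scaling it had 1.09 (adjusted p = 0.0526), and MIR403 was called lower on this step with median ratios (-0.86, adjusted p = 0.00720) and with the miRNA total (-0.84, adjusted p = 0.0169). From day 4 to day 8, 1 of the 4 rose, MIR168a (1.07, adjusted p = 0.0222), where 14.6% of all loci were called. On day 0 against seedlings, MIR403 was higher by 1.24 (SE 0.37, adjusted p = 0.0157), 1 of the 4 where 45.8% of all loci were called, a difference that had adjusted p = 0.134 with median-ratio scaling. On day 8, 0 of the 4 passed against seedlings, where 49.7% of all loci did.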

How the data were processed

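Small RNA libraries of 10 inflorescence samples and 3 seedling samples were used. The authors trimmed reads with Trim Galore (17 bases or longer kept), mapped them to TAIR10 with STAR allowing up to 10 places and counted the uniquely mapped reads of each miRNA locus. The sources used here give no tool versions for the small RNA reads. Values were deposited as RPM, these counts divided by the mapped reads of the library, for 325 loci, of which 216 were above 0 in a library. In the deposited run list, 3 rows matched no sample and were not used. The low RPM values of every library were whole multiples of a step (tolerance 0.1), which gave the reads and depths estimated here. A quantile-normalized RPM table of the authors with 169 loci served as an alternative.

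On log2(RPM + 1), a model with 1 term per group and an intensity trend was fitted in limma 3.58.1 (R 4.3.3). Loci with at least 1 RPM in at least 2 libraries were tested, 137 in the 10 inflorescence libraries and 153 in all 13, and adjustment followed Benjamini and Hochberg over these, with a threshold of 0.05. Ratios between loci were tested by exact permutation. Sequences were searched in the genome without mismatch on both strands with Python 3.11.15, and target windows were compared without gaps. All 11 pairs of replicates differed by more than sampling noise (chi-square of 3.18 to 21.0 per locus) and were kept apart. The methods of the study describe 3 biological replicates, whereas the labels list 2 for days 0 and 4 and do not say whether they came from separate plants, so p-values measure the spread between these samples. The deposited list gives a run where a block of libraries begins, and the rest of a block was taken to belong to that run. The members were named in every comparison. For members with a mean of at least 10 RPM the 3 loci with the highest Pearson r were named, and of 3 lists of related loci those that passed were named, in part. The members and lists were chosen with earlier results of these data known. Alternatives were pseudocounts of 0.5 and 5, a minimum of 10 RPM or none, other scalings, no trend, a replicate block and leaving out each library.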

Additional observations from a re-analysis of the deposited data

How the results depend on the processing

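The difference of MIR173 from seedlings kept its call under all alternatives, and so did the day 2 to day 0 results their lack of one. The fall of MIR173 from day 2 to day 4 missed the threshold with the authors' quantile-normalized values (-0.31, adjusted p = 0.222), which hold only 3 different values of MIR173 in inflorescences since they keep ranks alone, and at -0.76 without the trend (adjusted p = 0.183) and with all 13 libraries in the fit (adjusted p = 0.183). Leaving out each library gave -0.90 to -0.55. The rise of MIR390a from day 0 to day 8 missed it with median-ratio scaling (0.77), quantile-normalized values (0.80) and, at 1.05, all 13 libraries (adjusted p = 0.510), and leaving out each library gave 0.91 to 1.23. The cause was not tested in the other cases.

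From day 2 to day 8, MIR173 passed with median-ratio scaling (-0.62) and scaling to the miRNA total (-0.56), and MIR390b with median-ratio scaling (-1.07). Over the 4 days, MIR173 passed with a minimum of 10 RPM (adjusted p = 0.0118), median-ratio scaling (0.00770), the miRNA total (0.0152) and the replicate block (0.00406), and without each library its adjusted p was 0.0351 to 0.253. MIR390a passed there with a minimum of 10 RPM (0.0471), where fewer loci were tested. On day 8 against seedlings MIR390a passed with a pseudocount of 5 (0.93) and a minimum of 10 RPM (1.70, adjusted p = 0.0496), and leaving out each library gave 0.60 to 2.56. On day 0 it gave -0.46 to 1.51.

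Among the fold changes, signs turned only for values that passed no test. For MIR390a from day 2 to day 4 they were -0.063 with median ratios, -0.043 with the miRNA total and -0.045 with quantile values (leaving out each library, -0.18 to 0.37). From day 2 to day 8 they were -0.033 and -0.012 with median ratios and quantile values, and from day 4 to day 8 leaving out each library gave -0.11 to 0.45. For MIR390b the left-out libraries gave -0.71 to 0.011 from day 2 to day 4 and -0.51 to 0.31 from day 0 to day 8. For MIR173 from day 0 to day 8 they gave -0.24 to 0.13, quantile values 0.31 and the replicate block 0.11.

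The ratio of MIR173 to MIR390a between tissues was 0.29, -0.025 with a pseudocount of 0.5 and -0.44 to 1.36 without each library, of which 1.36, without seedling replicate 2, passed (adjusted p = 0.0455). That of MIR173 to MIR390b was -0.77, -1.61 with a pseudocount of 0.5 (adjusted p = 0.0315) and 0.68 with 5, as the seedling values of MIR390b are 0. That of MIR390a to MIR390b was -2.16 to -0.20 without each library, of which -2.16, again without seedling replicate 2, passed (adjusted p = 0.0455).

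Replicate numbers did not pair the samples. Deviations of 13 same-numbered pairs of libraries correlated at -0.17 to 0.15, above 0.1 in 2. With the replicate block MIR173 passed over the 4 days, and no other call of the 3 loci changed. With a minimum of 10 RPM, 31 loci were called from day 2 to day 8, 43 on day 0 and 41 on day 8 against seedlings. Without day 4 replicate 1, 12 were called from day 4 to day 8. From day 0 to day 8, 23 were called with all 13 libraries in the fit. Depth limits the MIR390 loci most, with 2 to 26 reads a library in inflorescences and 0 to 4 in seedlings.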
